A study of Danio rerio with 12 samples.

Results

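The genes of the peroxisome proliferator-activated receptors (PPARs) and of 4 proteins that work with them were followed in whole zebrafish embryos. The members were the 9 rows of the expression table with the gene name pparg, pparaa, pparab, pparda, ppardb, ppargc1a, ppargc1b, ncor1 or med1, of 31901 genes listed. No name occurred on more than 1 row. The embryos were wild type, and RNA was taken from 12 libraries in 3 groups of 4. The controls were held in 0.1% DMSO, the second group in 75 µM GW9662 and the third in 25 µM rosiglitazone, in each case from 6 to 24 hours post-fertilisation (hpf). The DMSO content of the treated groups was not recorded in the sample labels used here. GW9662 is used to block PPARγ irreversibly, and rosiglitazone to activate it. Their doses differed, so a comparison of the treated groups is not a comparison of potency. The question here was whether the transcripts of the receptors and of their partners differ in embryos held in either compound. Whether PPARγ itself was inhibited or activated in these embryos was not tested.

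Groups were taken from the titles and library names. A separate treatment label disagrees with them, with TBBPA on each GW9662 library and DMSO on each rosiglitazone library. A batch label gives each library an hour of its own, from 24 to 27 hpf in DMSO, 28 to 31 hpf in GW9662 and 32 to 35 hpf in rosiglitazone, so whatever it records and the treatment cannot be told apart. Between 12.8 and 22.7 M fragments were assigned to genes per library. No label says that the replicates came from separate clutches, so p-values measure only the spread between these libraries. Embryos were sequenced whole, so fewer cells of a type and less RNA per cell cannot be told apart. Skeletal muscle markers differed widely between the groups. The summed level of 18 such genes was 11605 to 12131 FPKM (fragments per kilobase of gene length, scaled to depth) in DMSO, 4289 to 4986 in GW9662 and 8265 to 10663 in rosiglitazone. Of 15 tested, 14 were called lower with GW9662, and 9 lower and 2 higher with rosiglitazone. The sum of 16 kidney (pronephros) markers was 84.0 to 88.1, 106 to 113 and 102 to 106 FPKM, and that of 12 neural markers 872 to 912, 667 to 750 and 834 to 891 FPKM, in the same order. Of 10 kidney markers tested, 5 were called higher and 2 lower with GW9662, and 4 higher and 0 lower with rosiglitazone. The 12 neural markers gave 0 higher and 6 lower with GW9662, and 0 higher and 1 lower with rosiglitazone. Of all genes tested, 36% were called with GW9662 and 17% with rosiglitazone. The part of these markers in the values below was not tested. The summed markers of yolk and of epidermis were high in every library, as whole embryos should hold. Single yolk markers were near 0, such as mxtx2 (at most 0.0570 FPKM). Of 11 yolk markers tested, 6 were called higher and 4 lower with GW9662, and 4 higher and 1 lower with rosiglitazone. The 10 epidermis markers tested gave 2 higher and 4 lower with GW9662, and 1 higher and 3 lower with rosiglitazone.

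PPARs are nuclear receptors that bind DNA as a dimer with a retinoid X receptor (RXR) and change the transcription of nearby genes when a fatty acid or a drug occupies their pocket. PPARα drives the burning of fatty acids, PPARδ does so more broadly, and PPARγ drives fat storage and the formation of fat cells in mammals. Zebrafish have duplicates of the α and δ genes (pparaa and pparab, pparda and ppardb) and a single pparg. Without an activating ligand the receptors can hold corepressors such as NCoR1 (ncor1), which bring histone deacetylases. With one they recruit coactivators, among them PGC-1α and PGC-1β (ppargc1a and ppargc1b), which also raise mitochondrial gene expression, and MED1 (med1), the Mediator subunit that contacts nuclear receptors and links them to RNA polymerase.

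Levels are given in FPKM, which is per gene length, so members can be compared with each other. Changes are differences of log2(FPKM + 0.5) from 1 limma model over all 12 libraries, with the standard error (SE). A change was called at a Benjamini-Hochberg adjusted p of 0.05 over the 14433 genes that reached 1 FPKM in at least 4 libraries. The added 0.5 understates changes of genes with low values. Of the 9 members, 8 passed this filter and pparab did not.

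Of the receptors, pparaa was lower in both treated groups, and of the cofactors ppargc1b was higher in both. These were the calls against DMSO, 2 of 8 members tested (25%) for each compound, where 36% of all genes tested were called with GW9662 and 17% with rosiglitazone. The transcript of pparg, which encodes the receptor that both compounds are used to target, was not called in any comparison. Between GW9662 and rosiglitazone, pparda was lower and ppardb higher in GW9662, again 2 of 8 members, against 30.5% of all genes. The count fell to 0 or 1 when any of 8 single libraries was left out, and pparda, at the threshold, had entered the test only through the DMSO and rosiglitazone libraries.

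The gene pparg encodes PPARγ (Ensembl ENSDARG00000031848, chromosome 11, 609516 to 669558, minus strand; all positions are those of the deposited table, for which no build is named in the sources used here). It stood at 1.13, 1.58, 1.1 and 2.28 FPKM in DMSO replicates 1 to 4. The GW9662 libraries gave 1.35, 1.52, 1.06 and 1.14 FPKM, and the rosiglitazone libraries 1.57, 1.60, 1.82 and 1.68 FPKM. DMSO replicate 4 was the highest of the 12 libraries, and both treated groups overlapped the DMSO range. The 4 rosiglitazone libraries all lay above the 4 GW9662 libraries, by a narrow margin. Over the 4 libraries of a group these values rest on 163, 143 and 199 fragments, in the order DMSO, GW9662, rosiglitazone.

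Means of pparg were 1.52 ± 0.552 FPKM in DMSO (SD, n = 4), 1.27 ± 0.209 in GW9662 and 1.67 ± 0.111 in rosiglitazone. Its log2 change against DMSO was -0.16 ± 0.165 (SE) with GW9662 (95% interval -0.52 to 0.20, limma adjusted p = 0.488) and 0.14 with rosiglitazone (-0.22 to 0.49, adjusted p = 0.644). The GW9662 value moved with single libraries, to 0.00 without DMSO replicate 4 and to -0.26 without DMSO replicate 3. The rosiglitazone value also moved, to 0.30 without DMSO replicate 4 and to 0.04 without DMSO replicate 3. GW9662 minus rosiglitazone was -0.30 (-0.66 to 0.06, adjusted p = 0.201), so these groups did not overlap while the change was not called. Across all genes tested, 14% lay wholly lower in GW9662 than in rosiglitazone in this way. All 3 intervals span 0, which does not show that the levels were equal.

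The gene pparaa encodes a PPARα (ENSDARG00000031777, chromosome 4, 18609539 to 18635005, minus strand). Its level was 2.85, 2.88, 2.64 and 2.68 FPKM in DMSO replicates 1 to 4, and 1.22, 1.39, 1.41 and 1.69 FPKM in GW9662. In rosiglitazone it was 1.41, 1.92, 2.24 and 1.43 FPKM. Every treated library lay below every DMSO library, and the DMSO libraries were close together. The same lack of overlap, in either direction, was found for 37% of all genes with GW9662 (17.5% lower) and 20.5% with rosiglitazone (9.6% lower). The treated groups overlapped each other, with rosiglitazone replicates 2 and 3 above all GW9662 libraries. The means were 2.76 ± 0.123, 1.43 ± 0.194 and 1.75 ± 0.402 FPKM (SD, n = 4), from 355, 201 and 259 fragments.

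On the log2 scale pparaa fell by 0.76 ± 0.127 (SE) with GW9662, which is 1.70-fold lower on the FPKM + 0.5 scale (95% interval -1.04 to -0.49, limma adjusted p = 0.000415). With rosiglitazone it fell by 0.55, or 1.47-fold (-0.83 to -0.28, adjusted p = 0.00963). The inhibitor and the agonist thus gave the same direction for this receptor. Both comparisons use the same DMSO libraries. The difference between the treated groups was -0.21 and was not called (adjusted p = 0.238). Of all genes tested, 17.1% were called lower with GW9662 and 7.68% with rosiglitazone, so a call in this direction was not rare.

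The other α copy, pparab (ENSDARG00000054323, chromosome 25, 2198781 to 2254112, plus strand), was near the limit of detection. It was at 0.181, 0.236, 0.429 and 0.132 FPKM in DMSO and at 0.486, 0, 0.244 and 0.274 FPKM in GW9662. Rosiglitazone gave 0.0867, 0.484, 0.0723 and 0.0293 FPKM. Replicate 2 held 17 of the 22 pparab fragments of the rosiglitazone group, and the DMSO and GW9662 groups held 24 and 29. The library at 0 allows a level of up to 0.117 FPKM (3 fragments). The groups overlapped, and no difference was detectable at this depth.

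The δ copies differed from each other in level. The gene ppardb (ENSDARG00000009473, chromosome 8, 23703464 to 23726040, plus strand) was at 8.0, 8.97, 9.05 and 9.36 FPKM in DMSO. It was at 9.40, 9.10, 9.64 and 9.98 FPKM in GW9662 and at 8.93, 7.67, 7.94 and 8.08 FPKM in rosiglitazone. All GW9662 libraries were above all rosiglitazone libraries, as for 15.4% of all genes, while DMSO overlapped with both. The means were 8.85 ± 0.587, 9.53 ± 0.370 and 8.15 ± 0.543 FPKM (SD, n = 4).

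Against DMSO the log2 change of ppardb was 0.10 ± 0.0646 (SE) with GW9662 (limma adjusted p = 0.241) and -0.11 with rosiglitazone (adjusted p = 0.286). Between the compounds it was 0.21 higher in GW9662, a 1.16-fold difference (adjusted p = 0.0234), a direction called for 16% of all genes. The call was lost in 6 of 25 alternatives, with an adjusted p of at most 0.0631, as when GW9662 replicate 3 or 4 or rosiglitazone replicate 2, 3 or 4 was left out. The annotated span of ppardb overlaps mkrn4 on the same strand. That neighbour stood at 18.8, 18.2 and 19.3 FPKM in DMSO, GW9662 and rosiglitazone, with a log2 difference of -0.08 between GW9662 and rosiglitazone (adjusted p = 0.453).

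The gene pparda (ENSDARG00000044525, chromosome 22, 997838 to 1018752, plus strand) was below ppardb in every library. It gave 1.27, 1.07, 0.585 and 0.635 FPKM in DMSO, and 0.655, 0.273, 0.643 and 0.514 FPKM in GW9662. In rosiglitazone it gave 0.761, 1.17, 0.857 and 1.18 FPKM. All GW9662 libraries were below all rosiglitazone libraries, as for 14% of all genes, and the DMSO libraries overlapped with both groups. The group sums were 107, 70 and 140 fragments, so counting error is large in single libraries. The annotated span of pparda also overlaps another gene on the same strand, FP067424.1 (552 bases, mean 0.538 FPKM). The part of this overlap in the pparda values was not tested.

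The mean level of pparda was 0.889 ± 0.333 FPKM in DMSO (SD, n = 4), 0.521 ± 0.178 in GW9662 and 0.993 ± 0.216 in rosiglitazone. Its log2 change was -0.43 ± 0.196 (SE) with GW9662 (limma adjusted p = 0.107) and 0.12 with rosiglitazone (adjusted p = 0.733). GW9662 was 0.55 lower than rosiglitazone on the log2 scale, or 1.47-fold (adjusted p = 0.0480), where 14.5% of all genes were called lower. This call stood at the threshold: it was lost in 11 of 24 alternatives, 8 of them leaving out 1 library (DMSO replicate 2, any GW9662 library, or rosiglitazone replicate 2, 3 or 4), with adjusted p between 0.0359 and 0.138. The gene entered the test with exactly 4 libraries at 1 FPKM or more, of which 2 were DMSO, 2 rosiglitazone and 0 GW9662.

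**Figure D1:**
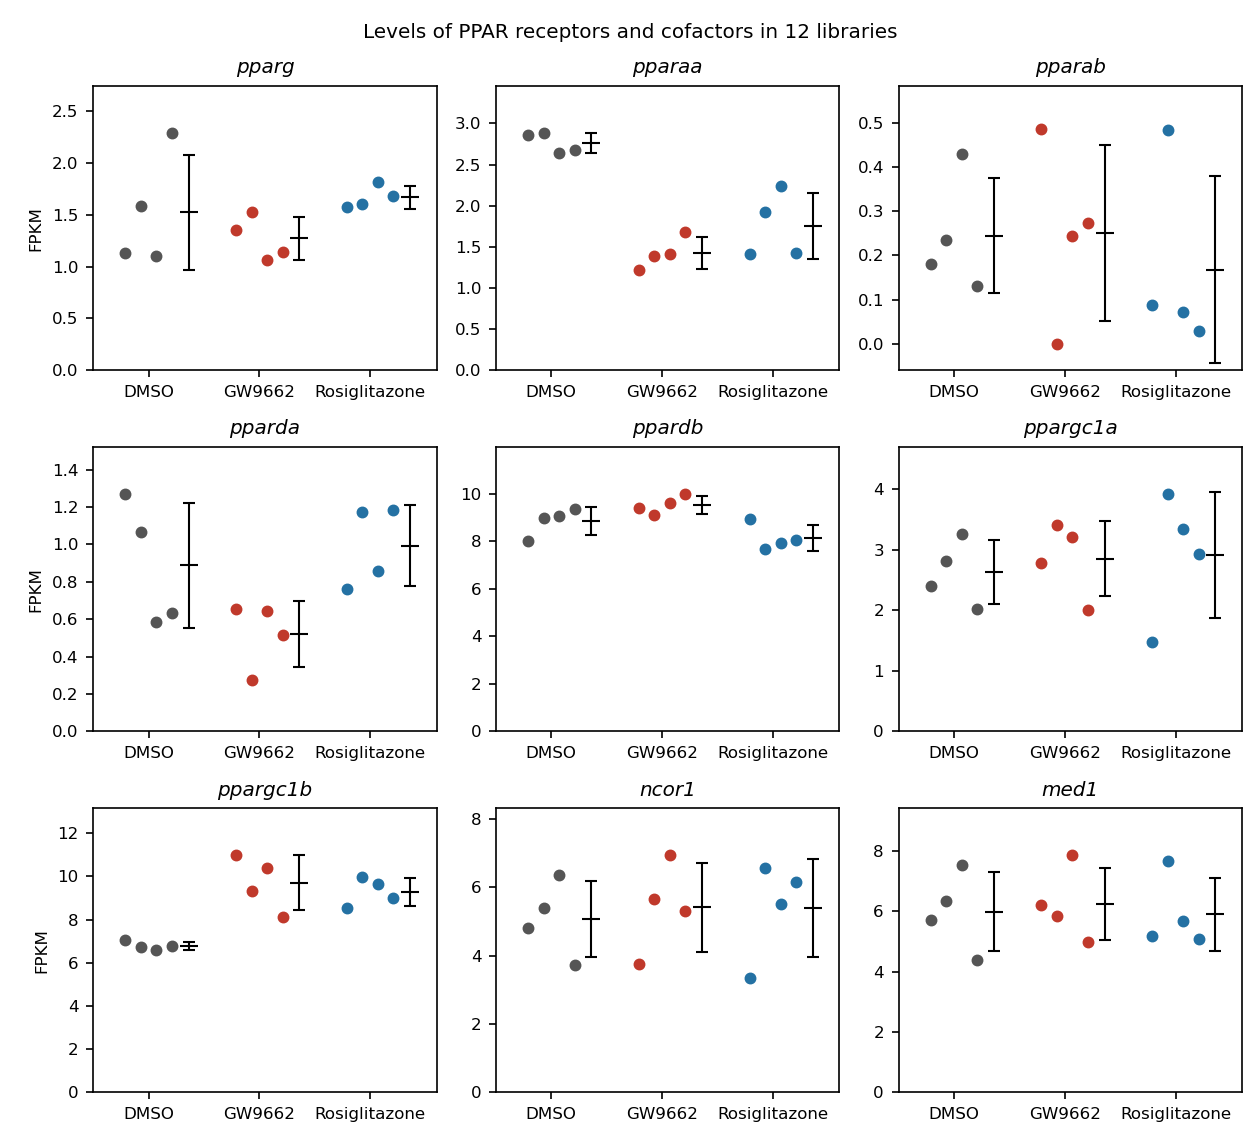
Level of each of the 9 members in FPKM (vertical axis, a scale of its own per panel, starting at 0 except for pparab, where the SD bar passes below 0) in the 4 libraries of each group, one point a library, with bars for the mean and the SD. All pparaa points of the treated groups lie below the 4 DMSO points (2.64 to 2.88 FPKM), and all ppargc1b points of the treated groups lie above the DMSO points (6.60 to 7.04 FPKM).

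In every group ppardb had the highest receptor level, apart from the next by more than the ranges of the libraries. In DMSO pparaa followed, also apart, then pparg and pparda, whose ranges overlapped, and then pparab. In GW9662 and in rosiglitazone pparaa and pparg overlapped, so that the separation of these receptors seen in DMSO was not seen there. The lowest pair, pparda and pparab, overlapped in GW9662 and were apart in DMSO and rosiglitazone.

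Summed over the 5 receptors, the level was 14.3 ± 0.774 FPKM in DMSO (SD, n = 4), 13.0 ± 0.537 in GW9662 and 12.7 ± 0.233 in rosiglitazone. The ppardb transcript made up 62.0 ± 2.58% of this sum in DMSO, 73.3 ± 1.12% in GW9662 and 64.1 ± 4.56% in rosiglitazone. The share of pparaa was 19.4 ± 1.44%, 11.0 ± 1.30% and 13.7 ± 2.96%. In GW9662 libraries ppardb thus held a larger share of this sum, and pparaa a smaller one, than in DMSO libraries, without overlap in either. The level of ppardb itself was not called against DMSO with GW9662 (limma adjusted p = 0.241). The share of pparg was 10.6 ± 3.28%, 9.82 ± 1.97% and 13.1 ± 0.854%, and the groups overlapped in each comparison with DMSO. That of pparda was 6.28 ± 2.54%, 3.99 ± 1.30% and 7.81 ± 1.78%.

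Exact two-sided permutation tests over libraries were run on the receptor sum and the 5 shares in 3 comparisons, 18 tests in all. With 4 against 4 libraries, no p can be below 0.0286. This smallest p was reached by the pparaa share against DMSO with either compound (differences of -8.44 and -5.69 percentage points) and by the ppardb share of GW9662 against DMSO (11.3 points) and against rosiglitazone (9.26 points). It was also reached by the pparda share of GW9662 against rosiglitazone (-3.83 points) and by the receptor sum of rosiglitazone against DMSO (-1.53 FPKM). None passed after adjustment over the 18 tests (each at 0.0858). As no p could be below 0.0286, a pass would have required most of the 18 tests to reach this smallest p. The lack of a pass was thus nearly set by the number of libraries and does not show that the shares or the sum were equal. Shares of 1 sum move together, so the 18 tests are not separate results.

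**Figure D2:**
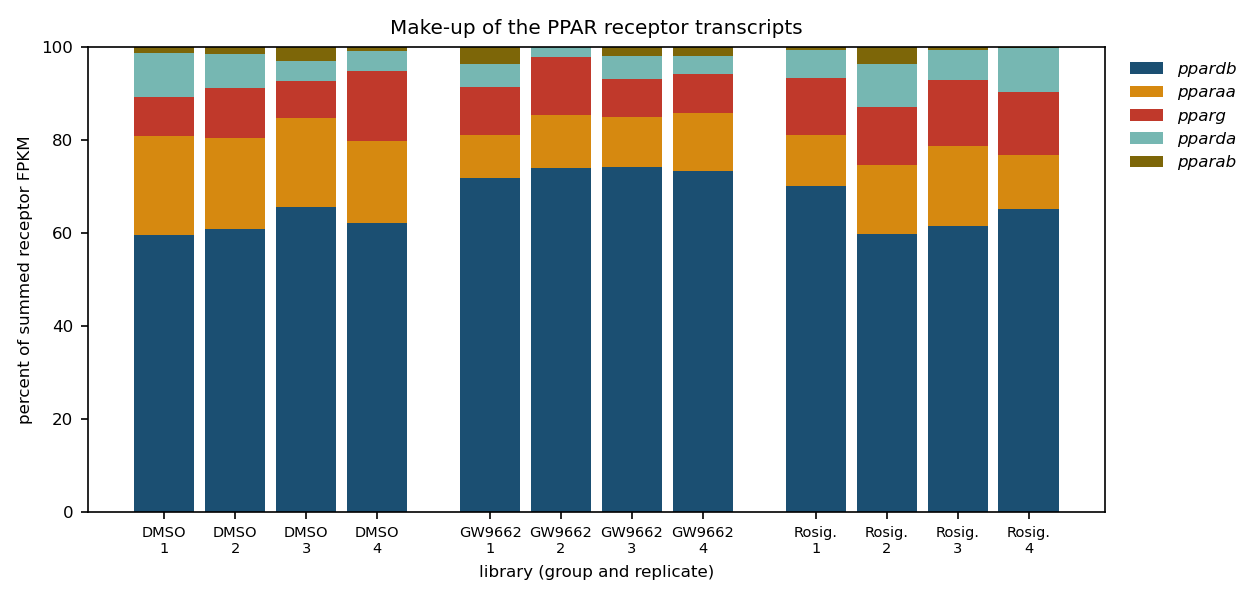
Share of the summed FPKM of the 5 PPAR genes held by each (vertical axis, percent) in the 12 libraries, grouped by treatment. The ppardb share averages 73.3% in GW9662 against 62.0% in DMSO, and the pparaa share 11.0% against 19.4%.

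Of the coactivators of the PGC-1 type, ppargc1b (ENSDARG00000101569, chromosome 14, 24934736 to 25001584, plus strand) was higher with both compounds. It was at 7.04, 6.71, 6.60 and 6.80 FPKM in DMSO. It was at 11.0, 9.34, 10.4 and 8.10 FPKM in GW9662 and at 8.55, 9.97, 9.63 and 8.98 FPKM in rosiglitazone. Every treated library was above every DMSO library, as for 19.4% of all genes with GW9662 and 10.9% with rosiglitazone, and the treated groups overlapped. The DMSO libraries lay within a narrow range, and GW9662 replicate 4 was the lowest treated library.

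Means of ppargc1b were 6.79 ± 0.190, 9.71 ± 1.27 and 9.28 ± 0.635 FPKM (SD, n = 4), from 3316, 5247 and 5226 fragments. It rose by a log2 of 0.48 ± 0.0843 (SE) with GW9662, or 1.39-fold (95% interval 0.30 to 0.66, limma adjusted p = 0.000631). With rosiglitazone it rose by 0.42, or 1.34-fold (0.24 to 0.61, adjusted p = 0.00388). Among all genes tested, 18.9% were called higher with GW9662 and 9.29% with rosiglitazone. The difference between the treated groups was 0.05 and was not called (adjusted p = 0.675).

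PGC-1α, the better known coactivator of mitochondrial genes, is encoded by ppargc1a (ENSDARG00000067829, chromosome 7, 70578985 to 70665965, minus strand). Its level was 2.41, 2.81, 3.26 and 2.03 FPKM in DMSO, and 2.79, 3.40, 3.21 and 2.0 FPKM in GW9662. Rosiglitazone gave 1.47, 3.91, 3.34 and 2.92 FPKM, the widest range of the 3 groups, with both the lowest and the highest of the 12 libraries. The groups overlapped in every comparison. The log2 change was 0.10 ± 0.227 (SE) with GW9662 (limma adjusted p = 0.786) and 0.08 with rosiglitazone (adjusted p = 0.859).

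The corepressor gene ncor1 (ENSDARG00000035285, chromosome 5, 41878252 to 41996414, minus strand) varied as widely within groups. It was at 4.80, 5.41, 6.38 and 3.73 FPKM in DMSO and at 3.77, 5.66, 6.94 and 5.30 FPKM in GW9662. In rosiglitazone it was at 3.34, 6.57, 5.51 and 6.16 FPKM. The ranges of the groups lay over one another. Its log2 changes against DMSO were 0.08 ± 0.211 (SE) with GW9662 (limma adjusted p = 0.813) and 0.06 with rosiglitazone (adjusted p = 0.886).

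The Mediator gene med1 (ENSDARG00000075340, chromosome 12, 15273304 to 15311999, plus strand) was at 5.72, 6.34, 7.54 and 4.39 FPKM in DMSO and at 6.22, 5.86, 7.86 and 5.0 FPKM in GW9662. In rosiglitazone it was at 5.17, 7.67, 5.67 and 5.10 FPKM. Replicate 3 was the highest and replicate 4 the lowest library in both DMSO and GW9662. The log2 changes against DMSO were 0.06 ± 0.167 (SE) with GW9662 (limma adjusted p = 0.824) and -0.02 with rosiglitazone (adjusted p = 0.964). For ppargc1a, ncor1 and med1 the SE was large beside that of ppargc1b, and leaving out 1 library turned the sign of each of these changes.

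**Figure D3:**
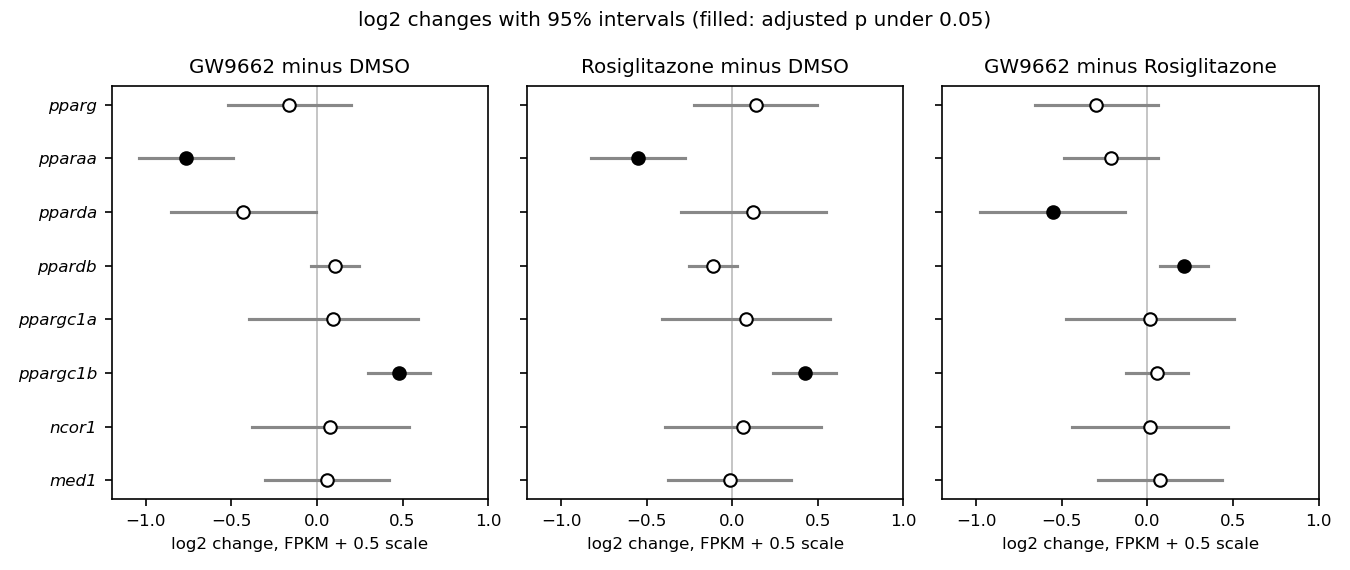
Log2 change of each tested member on the log2(FPKM + 0.5) scale (horizontal axis) in the 3 comparisons, with bars for the 95% interval of the limma model. The intervals of pparaa (-1.04 to -0.49 with GW9662) and of ppargc1b (0.30 to 0.66) lie off 0 against DMSO, while those of ppargc1a, ncor1 and med1 span 0. That of pparda with GW9662 (-0.855 to -0.00612) also lies just off 0, though its change was not called (limma adjusted p = 0.107). Intervals are not adjusted for the number of genes tested.

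The mean levels of the cofactors ranked in the same order in each group, ppargc1b above med1, ncor1 and ppargc1a. In DMSO ppargc1b overlapped with med1 and in both treated groups it was apart from it. The levels of med1 and ncor1 overlapped in each group. That of ncor1 was apart from ppargc1a in DMSO and GW9662 and overlapped with it in rosiglitazone.

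The spread of ppargc1a, ncor1 and med1 within groups was shared in part. As log2 deviations from the mean of the own group, DMSO replicate 3 was at 0.28, 0.32 and 0.33 for the 3 genes and DMSO replicate 4 at -0.29, -0.38 and -0.39. Rosiglitazone replicate 1 was at -0.73, -0.58 and -0.16, and rosiglitazone replicate 2 at 0.43, 0.30 and 0.37. In these 4 libraries, and in GW9662 replicate 3 (0.17, 0.36 and 0.33), the genes deviated in the same direction. They did so by less in DMSO replicate 1 (-0.089, -0.051 and -0.040) and DMSO replicate 2 (0.098, 0.105 and 0.098). GW9662 replicate 1 was low for ncor1 alone, at -0.44, and GW9662 replicate 4 was at 0.00 for ncor1 beside -0.40 for ppargc1a and -0.27 for med1. In GW9662 replicate 2 and rosiglitazone replicates 3 and 4, med1 was below its group mean (-0.07, -0.04 and -0.18) while ppargc1a and ncor1 were above theirs. Over the 12 libraries, the deviations had a Pearson r of 0.777 between ppargc1a and ncor1, 0.702 between ppargc1a and med1 and 0.639 between ncor1 and med1. These points share their libraries and their depth.

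Long genes in general also deviated in these libraries. Their value is a median over many genes, so its size cannot be set beside that of single genes. The median deviation of the 1396 tested genes with a length over 6 kb was 0.05 in DMSO replicate 3, -0.06 in DMSO replicate 4, -0.09 in rosiglitazone replicate 1 and 0.07 in rosiglitazone replicate 2. It was 0.05 in GW9662 replicate 3 and -0.07 in GW9662 replicate 4, where ncor1 did not deviate. Of these cofactors, ncor1 (9569 bases) and ppargc1b (7415 bases) are over 6 kb, and med1 (5464 bases) and ppargc1a (2580 bases) are not. For ppargc1b the deviation was -0.04 in DMSO replicate 3 and 0.00 in DMSO replicate 4. It was 0.10 and -0.24 in GW9662 replicates 3 and 4, and -0.11 and 0.10 in rosiglitazone replicates 1 and 2, in the direction of the long-gene median. With this median as a covariate, an alternative chosen after the data were seen, the SE of ppargc1a fell from 0.227 to 0.101, that of med1 from 0.167 to 0.0946 and that of ncor1 from 0.211 to 0.160. No call of a member changed. What the long genes share with these cofactors was not tested.

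**Figure D4:**
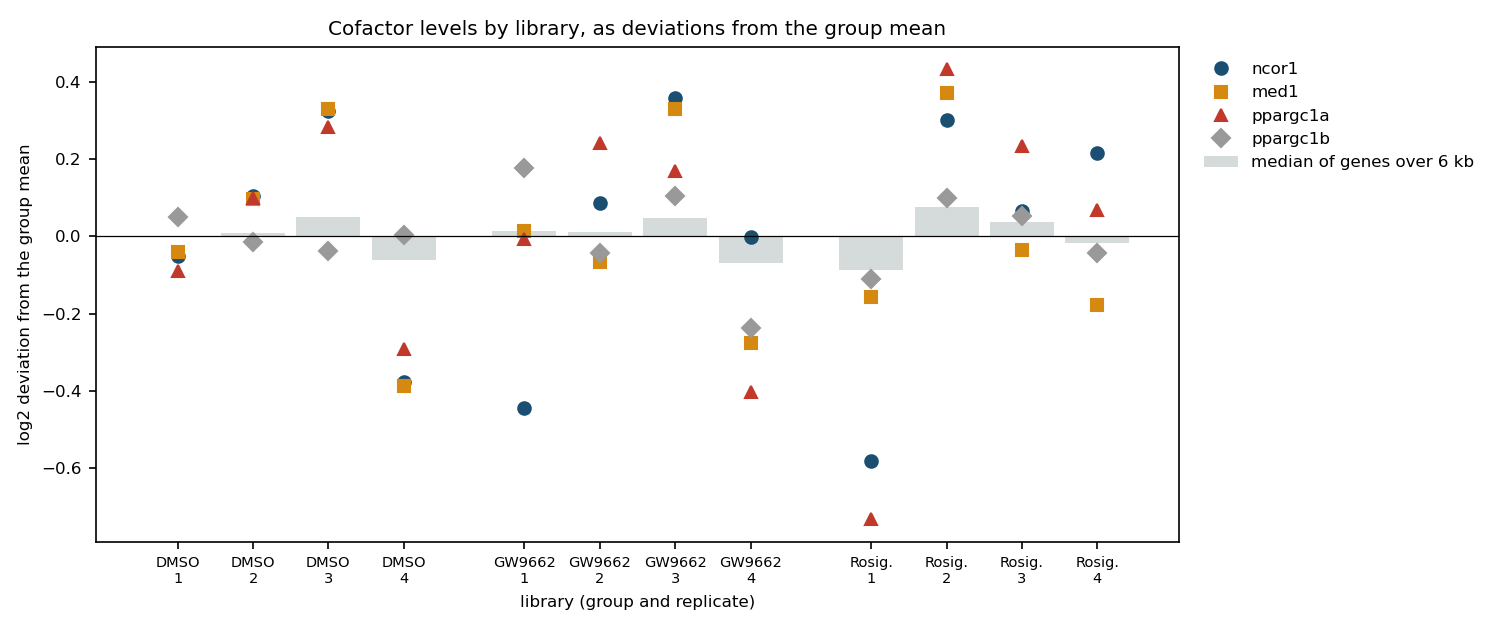
Log2 deviation of each library from the mean of its group (vertical axis) for ppargc1a, ncor1, med1 and ppargc1b, one point a gene and library, beside bars for the median deviation of the 1396 genes over 6 kb. DMSO replicate 4 and rosiglitazone replicate 1 are low and DMSO replicate 3 and rosiglitazone replicate 2 are high for ppargc1a, ncor1 and med1.

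The RXR genes, whose proteins are the partners of every PPAR on DNA, moved in different directions. Of 6 in the list, 5 were tested. With GW9662, 1 was called higher and 2 lower (median log2 change -0.13), and with rosiglitazone 1 higher and 0 lower (median -0.03), where the median of all genes was 0.01 and 0.00. These are 60% and 20% of the 5 genes, against 36% and 17% of all genes. The gene rxraa was higher with GW9662, at 8.92 ± 1.15 against 6.03 ± 0.367 FPKM in DMSO (SD, n = 4; log2 change 0.52, limma adjusted p = 0.00307), and stood at 5.95 FPKM in rosiglitazone. Its change was called between the compounds too (0.55, adjusted p = 0.00269).

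Both RXRγ genes were lower with GW9662. The row matched to rxrga, listed under a clone name, was at 5.33 FPKM in DMSO, 4.07 in GW9662 (log2 change -0.35, limma adjusted p = 0.0129) and 6.93 in rosiglitazone. Its rise of 0.36 with rosiglitazone (adjusted p = 0.0236) was not called without DMSO replicate 2 or 3 or rosiglitazone replicate 2, 3 or 4 (adjusted p at most 0.0611). The gene rxrgb was at 3.06 FPKM in DMSO and 2.12 in GW9662 (-0.43, adjusted p = 0.00969). The RXRβ genes were not called against DMSO, with rxrba at 8.29, 9.42 and 9.25 FPKM and rxrbb at 0.965, 0.844 and 0.939 FPKM in the 3 groups. The sixth gene, rxrab, was too low to be tested.

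Beside PGC-1β, the related coactivator PRC (pprc1) rose with both compounds. It went from 23.5 ± 1.25 FPKM in DMSO to 38.3 ± 1.27 in GW9662 (SD, n = 4; log2 change 0.69, limma adjusted p = 1.77e-07) and 32.1 ± 1.33 in rosiglitazone (0.44, adjusted p = 5.05e-05). Of the PGC-1 genes, ppargc1b and pprc1 were called higher with each compound and ppargc1a was not called. The 95% intervals of ppargc1a were -0.40 to 0.59 with GW9662 and -0.41 to 0.57 with rosiglitazone. They include the ppargc1b changes of 0.48 and 0.42. Whether the change of ppargc1a differs from that of ppargc1b was not tested.

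Of 15 other coactivators tested, pprc1 among them, 2 were called higher and 2 lower with GW9662 (26.7%, median 0.02), and 1 higher and 1 lower with rosiglitazone (13.3%, median -0.03). The shares of all genes were 36% and 17%. The chromatin remodelling subunit smarcd3b fell by 0.27 with GW9662 (limma adjusted p = 0.000459) and by 0.26 with rosiglitazone (adjusted p = 0.00154). The arginine methyltransferase carm1 fell by 0.21 with GW9662 (adjusted p = 0.00115) and the CBP/p300 partner cited2 rose by 0.24 (adjusted p = 0.00547).

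Partners of NCoR1 moved in both directions with GW9662, while ncor1 itself was not called. Of 11 other corepressor genes tested, 2 were higher and 4 lower with GW9662 (54.5%, median -0.08), and 1 higher and 0 lower with rosiglitazone (9.09%, median 0.01), beside 36% and 17% of all genes. Histone deacetylase 3, the enzyme of the NCoR complex, fell by 0.43 (hdac3, from 12.6 to 9.23 FPKM, limma adjusted p = 0.00913). The deacetylase hdac1 fell by 0.22 (adjusted p = 0.00408), and so did the NCoR complex subunit tbl1xr1a (0.18, adjusted p = 0.0175) and the corepressor nrip1b (0.18, adjusted p = 0.0286). The tbl1xr1a call was lost without DMSO replicate 2 or GW9662 replicate 3 (adjusted p at most 0.0562). The nrip1b call was lost without DMSO replicate 1, 2 or 3 or GW9662 replicate 1 or 4 (adjusted p at most 0.0757). The higher genes were the NCoR complex subunit tbl1x (0.18, adjusted p = 0.0461) and the scaffold of another deacetylase complex, sin3aa (0.14, adjusted p = 0.0478), both near the threshold. The NCoR complex subunit gps2 was at 0.21 and was not called (adjusted p = 0.0671). The corepressor calls with GW9662 numbered 3, 2 and 3 without DMSO replicate 1, DMSO replicate 2 and GW9662 replicate 3. The call with rosiglitazone was also tbl1x (0.21, adjusted p = 0.0470), and it was lost when any of 9 single libraries was left out. The genes tbl1x, sin3aa and gps2 were named after their values were seen.

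Of 25 other Mediator subunits tested, 1 was called higher and 2 lower with GW9662 (12%, median -0.00), and 0 higher and 2 lower with rosiglitazone (8%, median -0.06). The shares of all genes were 36% and 17%. The subunit med24, which sits beside MED1 in the complex, was 0.20 lower with GW9662 (limma adjusted p = 0.0250) and 0.22 lower with rosiglitazone (adjusted p = 0.0278). The others were med31 (-0.20, adjusted p = 0.0296) and med30 (0.38, adjusted p = 0.0346) with GW9662 and med14 (-0.20, adjusted p = 0.020) with rosiglitazone. None of these 5 calls held in every alternative. Without DMSO replicate 1, DMSO replicate 2 or GW9662 replicate 1 there was 1 call with GW9662 and without GW9662 replicate 3 there were 0. Without DMSO replicate 2 or 4 there were 0 calls with rosiglitazone, and without rosiglitazone replicate 2 there was 1.

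Transcription factors that work with PGC-1 proteins, and mitochondrial genes downstream, were mixed. Of 13 tested, 3 were higher and 3 lower with GW9662 (46.2%, median 0.06) and 2 higher and 2 lower with rosiglitazone (30.8%, median 0.16), against 36% and 17% of all genes. The muscle and neural factor mef2d rose by 0.29 and 0.44 (limma adjusted p = 0.00608 and 0.000901). The mitochondrial biogenesis factor nrf1 fell by 0.24 with rosiglitazone (adjusted p = 0.00104). With GW9662 it was 0.12 higher (adjusted p = 0.0315), a call lost in 11 of 25 alternatives. The mitochondrial DNA factor tfam fell by 0.23 with GW9662 (adjusted p = 0.0151), and mef2ca rose by 0.32 with rosiglitazone (adjusted p = 0.0219). The tfam call was lost without DMSO replicate 1 (adjusted p = 0.0520) and the mef2d call with GW9662 under quantile normalization (adjusted p = 0.0567). The mef2ca call was lost in 5 of 25 alternatives (adjusted p at most 0.0643), 4 of them leaving out DMSO replicate 2 or 4 or rosiglitazone replicate 2 or 3. The list's calls with GW9662 numbered 2, 3 and 3 without DMSO replicate 1, GW9662 replicate 1 and GW9662 replicate 2, and those with rosiglitazone 2 without DMSO replicate 2 or rosiglitazone replicate 3.

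Of 22 known PPAR targets tested, mostly from mammals, 6 were higher and 6 lower with GW9662 (54.5%, median 0.07) and 5 higher and 2 lower with rosiglitazone (31.8%, median 0.05), where all genes gave 36% and 17%. The gluconeogenesis enzyme pck1 went from 4.43 ± 0.607 to 23.6 ± 1.66 FPKM with GW9662 (SD, n = 4; log2 change 2.30, limma adjusted p = 3.41e-08) and to 7.0 ± 1.48 with rosiglitazone (0.59, adjusted p = 0.00874). The lipase inhibitor angptl4 rose more with rosiglitazone, at 44.6 against 29.1 FPKM (0.61, adjusted p = 3.80e-06), than with GW9662, at 33.4 FPKM (0.20, adjusted p = 0.00724), and the difference between the compounds was called (adjusted p = 3.47e-05). The carnitine transferase cpt1ab rose with rosiglitazone (0.67, adjusted p = 0.000317) and was not called with GW9662 (0.10, adjusted p = 0.436). Here too the compounds differed (adjusted p = 0.000522). Over the 22 targets, 6 were called higher and 6 lower in GW9662 than in rosiglitazone (54.5%, beside 30.5% of all genes). Among those higher in GW9662 were pck1 (1.71, adjusted p = 8.79e-07) and fabp2 (0.60, adjusted p = 0.00224). The acyl-CoA synthetase acsl1b rose with both (0.73 and 0.52). The 6 lower with GW9662 were fabp11b (-0.86), ehhadh (-0.76), acsl1a (-0.64), acadm (-0.21), hadhab (-0.18) and acadvl (-0.13), with adjusted p at most 0.0379. Levels were low for fabp11b (1.79 FPKM in DMSO, 0.727 in GW9662), ehhadh (3.40 and 1.82) and acsl1a (3.37 and 1.99). The GW9662 mean of fabp11b was below the 1 FPKM of the filter. The 2 lower with rosiglitazone were fabp2 (-0.44, adjusted p = 0.0253) and cpt1aa (-0.20, adjusted p = 0.0331). Other copies of acsl1 and cpt1 thus went the other way. These lower genes, cd36 and slc25a20 were named after their values were seen. The gene cd36 was called higher with GW9662 (1.14, adjusted p = 0.0261) and was not called with rosiglitazone (-0.84, adjusted p = 0.143). It was also called higher in GW9662 than in rosiglitazone (1.97, adjusted p = 0.00114). Its mean level was low in DMSO (1.52 FPKM) and in rosiglitazone (0.786 FPKM). The gene slc25a20 was called higher with GW9662 (0.33, adjusted p = 0.00206) and was not called with rosiglitazone (0.04, adjusted p = 0.743). Of 8 fat cell markers only fabp11a, a fatty acid binding protein that is also in the target list, was tested. It stood at 137, 187 and 176 FPKM in DMSO, GW9662 and rosiglitazone and was called higher with both compounds (0.45, adjusted p = 0.000367, and 0.36, adjusted p = 0.00497). Of the others, lepa, cidec and adipoqa reached at most 0.711, 0.638 and 0.523 FPKM in any library, adipoqb, cfd and plin1 at most 0.125, 0.0660 and 0.0215 FPKM, and lepb was at 0 in all.

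**Figure D5:**
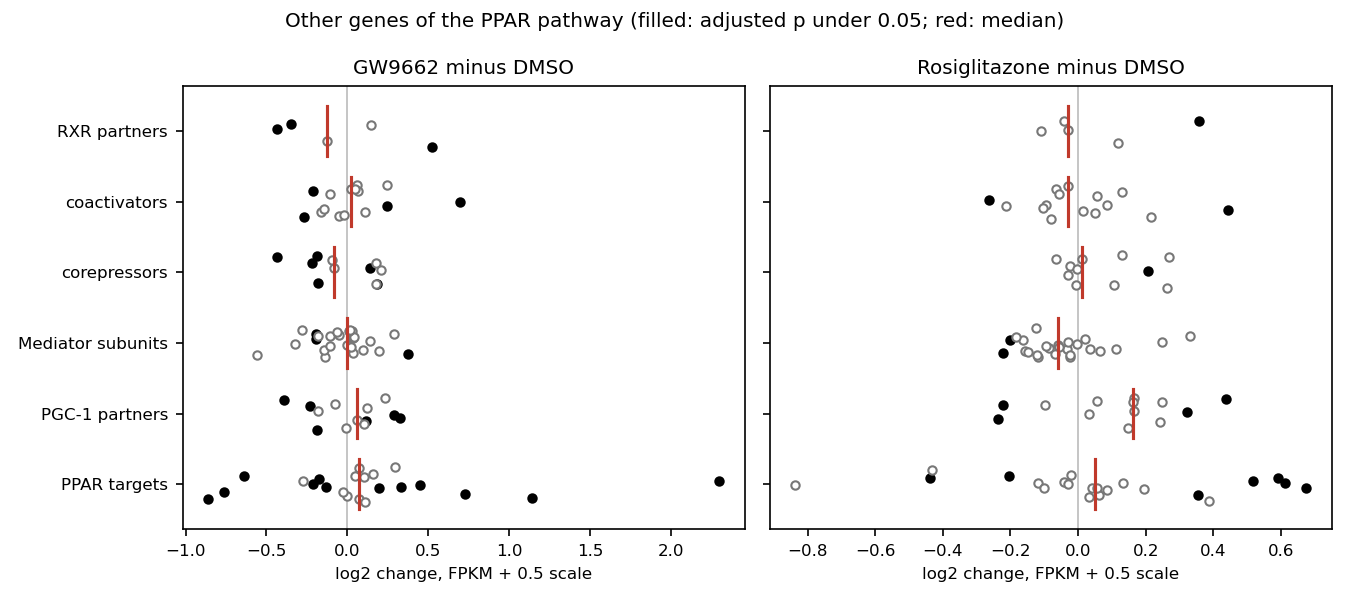
Log2 change against DMSO on the log2(FPKM + 0.5) scale (horizontal axis, with its own range in each panel) of every tested gene of the 6 lists of partners and targets, for GW9662 and for rosiglitazone, one point a gene, filled where called, with a red line for the list median. Each list holds genes on both sides of 0, with medians from -0.13 to 0.16.

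The genes most like each member over the 12 libraries were found by the Pearson r of log2(FPKM + 0.5). Only tested genes with a proper symbol, and not a clone or locus name, were ranked. For pparaa they were znf362a (0.967), cavin1a (0.957) and slc2a15a (0.954), and for ppargc1b ppp1r12a (0.968), pcxb (0.966) and sall4 (0.958). For ppardb they were dbt (0.958), ugt1b1 (0.935) and creld1b (0.934). These members differ between groups, so part of each r is the difference between groups. For ppargc1a the genes were arid3c (0.961), ncoa2 (0.952) and tcf20 (0.951), for med1 stk38a (0.966), prkg1a (0.957) and plagl2 (0.938), and for ncor1 exoc5 (0.909), sec31a (0.904) and cnot1 (0.895). The 2 tested receptors with the fewest fragments had weaker likeness, with suv39h1a (0.867), tmed8 (0.859) and camk2g2 (0.857) for pparg and clic4 (0.879), skia (0.874) and stx3a (0.842) for pparda. The top values were picked from among the tested genes with a proper symbol and describe these libraries only.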

How the data were processed

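Whole-embryo RNA was sequenced in 12 libraries. The tools named in the submitters' processing notes are HISAT2 2.0.5 (an aligner) and featureCounts 1.5.0-p3 (a read counter). No genome build is named in the sources used here. The library protocol in the labels describes both directional and non-directional preparation, so reads of overlapping genes on opposite strands may not be separated. How reads shared by gene copies were counted is not given in these notes. The deposited values are FPKM, computed by the authors per gene and library. Multiplied by gene length, 100% of these values were whole multiples of 1 number per library (tolerance 0.001), from which fragments were recovered.

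Tests used limma 3.58.1 in R 4.3.3 with a variance trend on log2(FPKM + 0.5), for genes that reached 1 FPKM in 4 or more of the 12 libraries, two-sided, with Benjamini-Hochberg adjustment within each of 3 comparisons at 0.05. The scripts were tested on simulated data. Figures were drawn with Python 3.11.15 and matplotlib 3.10.9. Receptor shares were tested by exact permutation. The members and lists were chosen with earlier results of these data known. Besides the members, genes were named as the 3 with a proper symbol most alike per member. Up to 4 per list with the smallest adjusted p against DMSO, and all RXR genes, were also named. The genes mkrn4 and FP067424.1 and the marker genes were named for their overlap or role. Some corepressors and PPAR targets were named after their values were seen. Alternatives were other pseudocounts, filters, scalings, variance models, a replicate block and leaving out each library. Protein sequences of the receptors were not analysed here.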

Additional observations from a re-analysis of the deposited data

Results flagged for a closer look

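Rosiglitazone replicate 2 stood far from the other 3 libraries of its group for pparab. Its level was 0.484 FPKM, against 0.0293 to 0.0867 FPKM in the others, and the gap to its neighbour was 0.874 of the range of the group, where 0.83 is the critical value of Dixon's test for 4 libraries. The share of pparab in the receptor sum was 3.76% in that library for the same fragments. Among 45 groups of 4 values examined these 2 stood out, and chance gives about 1 in 20. The library holds 17 of the 22 pparab fragments of its group.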

How the results depend on the processing

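The calls of pparaa and ppargc1b against DMSO held under each alternative in which they were tested, with adjusted p of at most 0.00184 and 0.0321 for pparaa and 0.00293 and 0.0140 for ppargc1b (GW9662 and rosiglitazone). With a filter at a mean of 5 FPKM, which left 4 members and also removed pparg, pparaa, pparda and ppargc1a, 1 member was called in each of the 3 comparisons. Between the compounds, members called numbered 1 with no filter, 0 under quantile normalization, 1 with a replicate block and 0 to 2 with single libraries left out. The libraries whose absence ended the pparda call were DMSO replicate 2, all GW9662 libraries and rosiglitazone replicates 2, 3 and 4. Those for ppardb were GW9662 replicates 3 and 4 and rosiglitazone replicates 2, 3 and 4. No label pairs libraries of equal replicate number, and so few correlations cannot settle whether they are paired. The same-number correlations were -0.0502 to 0.228, -0.0103 to 0.0751 and 0.0377 to 0.199, with 2, 1 and 1 of 4 best matched to their own number. The highest were between GW9662 and DMSO, at replicates 3 (0.228) and 4 (0.216), each best matched to its own number. The block gave 5329, 2433 and 4454 genes called, against 5196, 2450 and 4398 without it, and it ended the pparda call (adjusted p = 0.0775).

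Changes near 0 turned sign. Under voom on recovered fragments these were med1 with rosiglitazone (0.00630) and, between the compounds, ncor1 (-0.00930) and ppargc1a (-0.0253). Median centring gave -0.0117 for ncor1 and -0.0130 for ppargc1a, quantile normalization -0.0106 for ncor1 and library totals, added after seeing the data, -0.000144 for ppargc1a. With single libraries left out, the GW9662, rosiglitazone and between-compound changes ran from -0.0711 to 0.168, -0.145 to 0.0939 and -0.0358 to 0.197 for med1. They ran from -0.0475 to 0.226, -0.0630 to 0.257 and -0.178 to 0.163 for ncor1, and from -0.00143 to 0.229, -0.0624 to 0.325 and -0.230 to 0.158 for ppargc1a. The between-compound change of ppargc1b ran from -0.00417 to 0.134 and the GW9662 change of pparg from -0.262 to 0.00389. In percentage points, the GW9662 change of the pparg share ran from -1.59 to 0.791, and those of the pparab share from -0.433 to 0.801 with GW9662, -1.24 to 0.0370 with rosiglitazone and -0.0122 to 1.41 between the compounds.

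List medians moved as follows. With GW9662, the corepressors went to -0.12 under voom and 0.0206 with the stricter filter (-0.104 to -0.020 with single libraries left out), and the Mediator subunits to -0.0658 under voom and -0.0582 under quantile normalization. The stricter filter gave 0.15 and 0.12 for the RXR genes with GW9662 and rosiglitazone, and 0.11 for the PGC-1 partners with rosiglitazone. With single libraries left out the PGC-1 partners ran from 0.00881 to 0.114 with GW9662 and 0.114 to 0.189 with rosiglitazone, the coactivators from -0.0169 to 0.0446 and -0.0517 to 0.0628, the PPAR targets from 0.0289 to 0.122 and -0.0335 to 0.0840, and the RXR genes from -0.196 to -0.0427 and -0.060 to 0.0750, in the same order. The causes were not tested. Counts of fragments limit pparab, pparda, pparg and pparaa most, and FPKM without a known strand or build limits all members.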
